A study of Mus musculus with 12 samples.

Results

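The 9 genes described here encode proteins that cut, build or remodel the extracellular matrix. They are the matrix proteases Adamts1 and Adamts4, the plasminogen activator Plat and the activator receptor Plaur, the collagen chains Col1a1, Col3a1 and Col4a1, the collagen chaperone Serpinh1 and the matricellular protein gene Sparc. Every probe set annotated to a single one of these symbols was taken, which gave 15 of the 28898 probe sets that carry 1 gene symbol, for 9 of 17097 genes. Of the 9 genes, 3 had 1 probe set and 6 had 2. All 9 genes passed the filter on low values with their brighter probe set.

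RNA came from the hippocampus of mice on the side of a kainic acid (KA) injection into the amygdala, a model of status epilepticus, and was measured on Mouse MG-430 PM array strips. There were 4 groups of 3 arrays, namely KA mice at 14 d, control mice at 14 d, KA mice at 8 h and control mice at 8 h. KA mice received 0.3 µg KA in a volume of 0.2 µl and, 40 min later, 6 mg/kg of the benzodiazepine lorazepam into the abdomen, and controls received 0.2 µl of phosphate-buffered saline in the amygdala. The labels give no strain, age or sex, do not say whether controls were given lorazepam, and do not say whether each array holds its own animal, so p-values measure the spread between these samples, which may be technical. The times are those of the sample titles. The arrays titled 8 h also carry a time field, which reads 11, 12 and 13 h for KA and 8, 9 and 10 h for controls, so by that field KA and time cannot be separated. Values are log2 intensities. Array medians lay between 4.90 and 4.95, arrays of 1 group correlated at r = 0.989 to 0.997 over probe sets, and the background, taken as the mean of the 8 GC-rich nonspecific probe sets of each array, lay between 4.10 and 4.68. The KA arrays at 8 h stood apart in Xist, the noncoding RNA of X inactivation, which read 7.39 to 8.71 on them and 4.19 to 4.67 on the other 9 arrays, so a difference in sex, if there was one, and KA cannot be told apart at 8 h. Hippocampal tissue holds many cell types, and a larger number of cells of a type and more RNA per cell cannot be told apart in these values.

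The brain's extracellular matrix is built on hyaluronan, proteoglycans such as aggrecan, brevican and versican, and tenascins, with collagens mostly kept to the basement membranes of vessels and to the meninges. Secreted proteases of the ADAMTS family cleave those proteoglycans. Tissue plasminogen activator turns plasminogen into plasmin at synapses and vessels, and the urokinase receptor holds the related urokinase activator at the cell surface. In the hippocampus these systems are known for roles in plasticity, in the loosening of perineuronal nets and in the response of vessels and glia to seizures.

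Of the 9 genes, 6 have an entry in the RefSeq promoter table (GRCm38.p6), which gives the 250 bases before 1 start of each gene. The windows of 4 genes lie outside the annotated gene and are printed here because these genes followed different time courses, described below. Adamts1 passed the test at 8 h and not at 14 d, Sparc at 14 d and not at 8 h, and Col3a1 and Serpinh1 passed at both times. The window of Plaur lies within the annotated gene and 63 of the 250 bases of the Col4a1 window do, so the table's start is not the outermost one for either gene, and neither window is printed. Each sequence runs 5′ to 3′ toward the start, and capitals mark a match on either strand to a searched motif.
Adamts1, chr16:85803114-85803363, minus strand: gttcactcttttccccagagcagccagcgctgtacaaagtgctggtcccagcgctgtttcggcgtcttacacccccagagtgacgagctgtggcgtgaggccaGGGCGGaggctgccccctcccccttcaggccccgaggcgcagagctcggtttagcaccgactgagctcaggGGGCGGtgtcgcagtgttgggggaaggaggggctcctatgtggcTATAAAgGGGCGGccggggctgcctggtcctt
Sparc, chr11:55420081-55420330, minus strand: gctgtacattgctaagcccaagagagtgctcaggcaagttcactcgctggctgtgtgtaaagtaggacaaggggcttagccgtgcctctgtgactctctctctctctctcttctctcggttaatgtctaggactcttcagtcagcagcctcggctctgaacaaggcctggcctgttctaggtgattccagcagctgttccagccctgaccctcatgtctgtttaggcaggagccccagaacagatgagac
Col3a1, chr1:45311288-45311537, plus strand: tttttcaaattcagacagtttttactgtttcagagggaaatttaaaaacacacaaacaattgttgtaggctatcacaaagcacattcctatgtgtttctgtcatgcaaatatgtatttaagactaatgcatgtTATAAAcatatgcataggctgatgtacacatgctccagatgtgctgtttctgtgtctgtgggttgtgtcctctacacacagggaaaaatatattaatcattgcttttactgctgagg
Serpinh1, chr7:99353240-99353489, minus strand: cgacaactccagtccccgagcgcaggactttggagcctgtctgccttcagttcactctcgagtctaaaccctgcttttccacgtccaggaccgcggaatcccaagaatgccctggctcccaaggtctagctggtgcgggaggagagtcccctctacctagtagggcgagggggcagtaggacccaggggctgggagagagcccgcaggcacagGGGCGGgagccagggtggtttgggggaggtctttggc
The motifs searched were AP-1 (TGANTCA), the cAMP response element (TGACGTCA), heat shock elements (GAANNTTC and TTCNNGAA), the TATA box (TATAAA), the CCAAT box (CCAAT) and the GC box (GGGCGG). Adamts1 held a TATA box beginning 32 bases before the start and 3 GC boxes, motifs that 12.4% and 32.7% of all 32851 promoters of this length hold. Col3a1 held a TATA box at 117 bases and Serpinh1 a GC box at 37 bases, and Sparc had no match. The letters of AP-1 and of either heat shock element, found in 6.75%, 6.69% and 7.17% of promoters, are in none of the 4 windows. The Plaur window, not printed, held an AP-1 match at 69 bases, a heat shock match (TTCNNGAA) at 147 bases and 3 GC boxes. That of Col4a1, also not printed, held a CCAAT box at 145 bases. These matches describe the letters of the windows only.

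At 14 d the members higher after KA were genes of fibrillar collagen and of proteins that fold or bind it. Col3a1, Col1a1, Serpinh1 and Sparc rose, by 2.50-fold, 1.61-fold, 1.48-fold and 1.34-fold, and no member fell. These are 4 of 9 members, called at a limma adjusted p under 0.05 over all genes. The count ran from 1 to 4 with 1 array left out, and of the 4 only Col3a1 kept its call in every alternative fit. Of the 13853 genes tested, 1.99% rose and 0.57% fell at 14 d (2.56% in either direction). At 8 h the genes that rose were those of proteases, the plasminogen system, basement membrane collagen, type III collagen and the collagen chaperone. Plat was 2.38-fold, Serpinh1 2.31-fold, Adamts4 2.15-fold, Col4a1 1.82-fold, Col3a1 1.36-fold and Plaur 1.31-fold higher, and Adamts1 was at least 1.98-fold higher. These are 7 of 9 members, where 7.92% of all genes rose and 9.55% fell at 8 h (17.5% in either direction). The members' median log2 change was 0.35 at 14 d and 0.86 at 8 h, where the median of all genes tested was -0.0073 and -0.017. KA and control arrays did not overlap for 5 members at 14 d and for 8 at 8 h, where 16.5% and 33.8% of all genes tested showed no overlap. The members were chosen with earlier results of these data known, so these counts and medians describe them and are no test of the set.

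**Figure D1:**
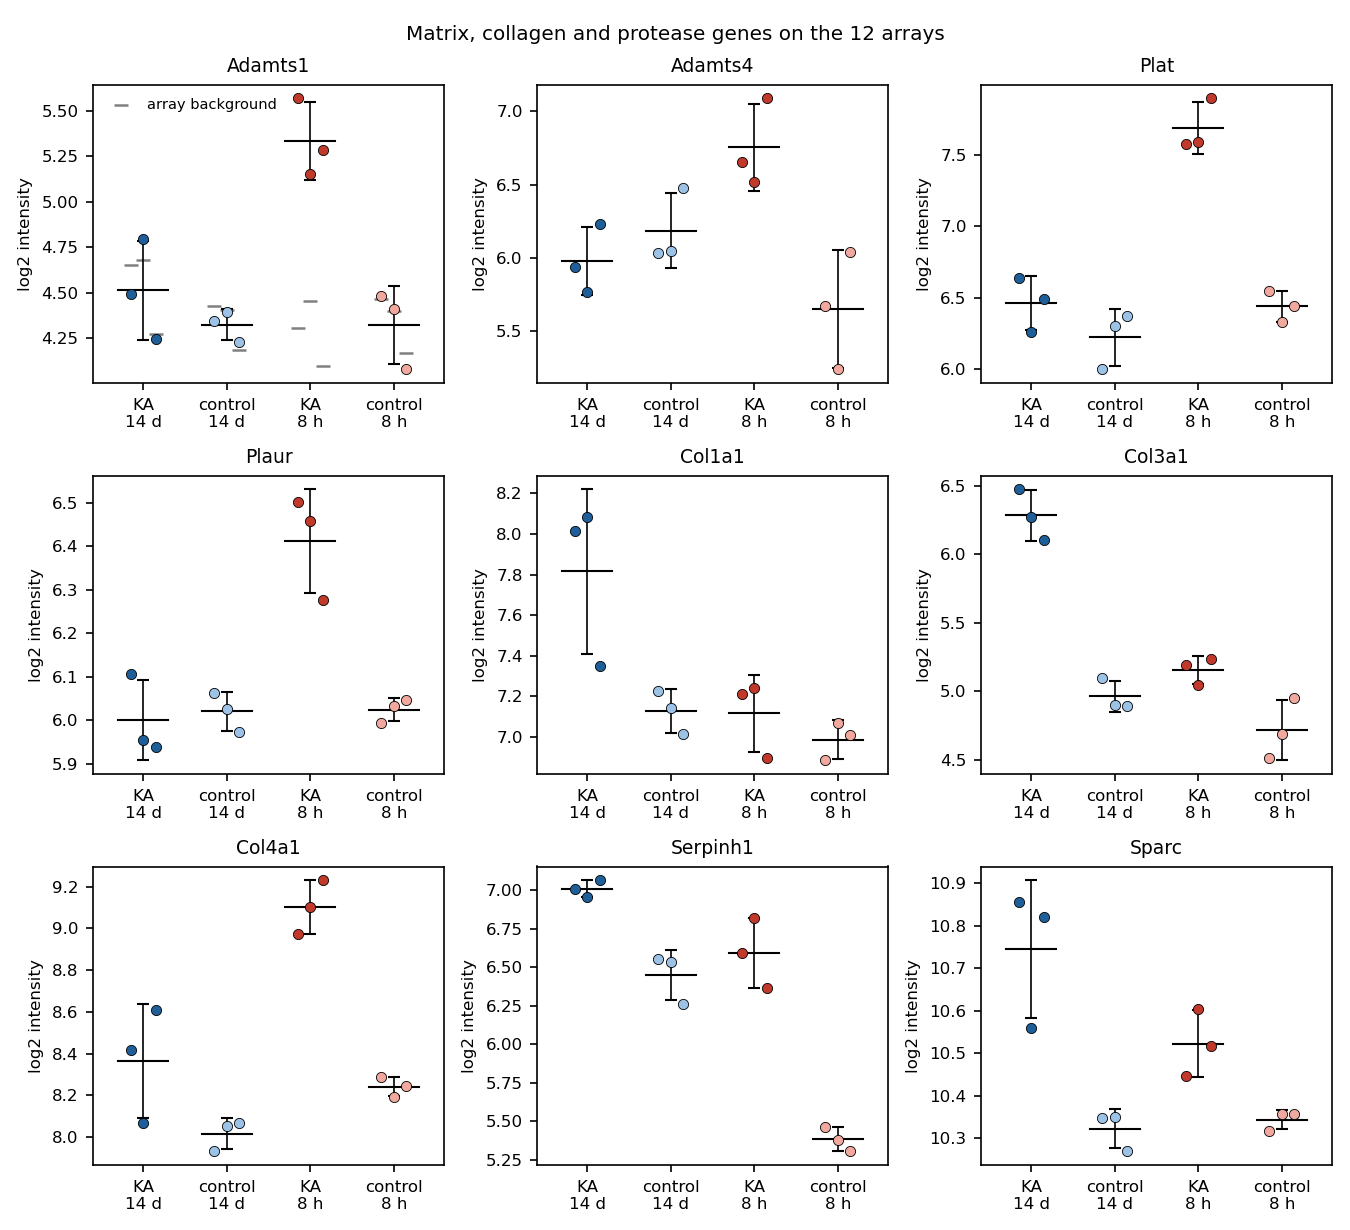
Log2 intensity of each gene's brighter probe set on the 12 arrays, by group (KA and control at 14 d, KA and control at 8 h); points are arrays, horizontal lines are means and error bars are SD (n = 3), and each panel has its own axis, which does not start at 0. The KA arrays at 8 h lie above all other arrays for Adamts1, Adamts4, Plat, Plaur and Col4a1, and the KA arrays at 14 d for Col1a1, Col3a1 and Serpinh1; grey dashes in the Adamts1 panel are the background of each array.

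Adamts1 encodes a secreted protease that cleaves aggrecan and versican. At 14 d it read 4.49, 4.80 and 4.25 in the KA arrays, against 4.35, 4.39 and 4.23 in the control arrays. The groups overlapped, 1 array of each lay above its background, and the log2 change of 0.19 ± 0.14 (SE, n = 3 per group) did not pass (limma adjusted p = 0.661). At 8 h it read 5.57, 5.15 and 5.29 in the KA arrays, against 4.48, 4.41 and 4.08 in the control arrays. All KA arrays lay above every control array, and 2 of the 3 control arrays lay above their background. The fitted log2 change was 1.01 ± 0.14 (limma adjusted p = 0.000132). The fold of at least 1.98 given above is counted from the background where a control array lay below it.

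Adamts4 encodes a related protease, an aggrecanase that also cleaves brevican. At 14 d its brighter probe set read 5.94, 5.77 and 6.23 in the KA arrays, against 6.03, 6.05 and 6.48 in the control arrays, a log2 change of -0.21 ± 0.19 that did not pass (limma adjusted p = 0.747). The groups overlapped, and the third array was the highest of each. The 8 h values were 6.65, 6.52 and 7.09 in the KA arrays, against 5.67, 5.24 and 6.04 in the control arrays. The lowest KA array lay above the highest control array although the 3 controls spread over more than those of any other member. The log2 change was 1.10 ± 0.19 (limma adjusted p = 0.000917). Its second probe set read 5.58, 5.36 and 5.89 in the KA arrays at 8 h, against 5.01, 4.70 and 4.79 in the control arrays. The second probe set rose as well, by 0.78 ± 0.12 (adjusted p = 0.000377 in the limma fit over all 32790 probe sets that passed the filter).

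Plat encodes tissue plasminogen activator, a serine protease of neurons and endothelium. At 14 d its brighter probe set read 6.63, 6.26 and 6.49 in the KA arrays, against 6.00, 6.30 and 6.37 in the control arrays. The groups overlapped, and the log2 change of 0.24 ± 0.12 did not pass (limma adjusted p = 0.461), though it did with array weights (log2 change 0.37, limma adjusted p = 0.00924). The array weights used here and below came from a fit that stopped before it converged. They gave KA 14 d replicate 1 a weight of 5.037, against 0.334 for replicate 2 and 0.385 for replicate 3. The 8 h values of Plat were 7.58, 7.59 and 7.90 in the KA arrays, against 6.55, 6.33 and 6.44 in the control arrays. The KA arrays at 8 h were the highest 3 of the 12, and the gene had the largest log2 change of the 9 at 8 h, 1.25 ± 0.12 (limma adjusted p = 3.94e-06). Its dimmer probe set, above background on 5 of 12 arrays, read 4.93, 4.35 and 5.05 in the KA arrays at 8 h, against 4.34, 4.28 and 4.41 in the control arrays, with 1 KA array within the range of the controls. Its log2 change was 0.43 ± 0.14 (limma adjusted p = 0.0446 over all probe sets).

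Plaur encodes the urokinase receptor, which is anchored in the membrane by a lipid tail. At 14 d it read 6.11, 5.95 and 5.94 in the KA arrays, against 6.06, 6.02 and 5.97 in the control arrays, a log2 change of -0.02 ± 0.08 (limma adjusted p = 0.956). The 2 groups overlapped and their means differed by less than the spread within either. Its 8 h values were 6.50, 6.46 and 6.28 in the KA arrays, against 5.99, 6.03 and 6.05 in the control arrays. All 3 KA arrays lay above the controls, which kept within a narrow range, and the log2 change was 0.39 ± 0.08 (limma adjusted p = 0.00407). This was the smallest change among the members called at 8 h.

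Col1a1 encodes a chain of type I collagen, the main fibrillar collagen of meninges and scars. At 14 d it read 8.01, 8.09 and 7.35 in the KA arrays, against 7.23, 7.14 and 7.02 in the control arrays. The KA arrays did not overlap the controls, but the third KA array lay closer to the controls than to the other KA arrays. The log2 change was 0.69 ± 0.16 (limma adjusted p = 0.0238), and it lost its call without KA 14 d replicate 1 (limma adjusted p = 0.134) or 2 (0.0874), without control 14 d replicate 1 (0.0520), 2 (0.0913) or 3 (0.113), and when the fit held the 14 d arrays alone (0.0821). Its 8 h values were 7.21, 7.24 and 6.90 in the KA arrays, against 6.88, 7.07 and 7.01 in the control arrays. Here the groups overlapped, with a log2 change of 0.13 ± 0.16 (limma adjusted p = 0.670). Col1a2, the gene of the partner chain in type I collagen, was below background on all 12 arrays.

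Col3a1 encodes type III collagen, which forms fibrils with type I in vessel walls and in loose connective tissue. At 14 d its brighter probe set read 6.48, 6.27 and 6.10 in the KA arrays, against 5.09, 4.90 and 4.89 in the control arrays. The 3 KA arrays at 14 d were the highest of the 12, well above the KA arrays at 8 h, and the log2 change was 1.32 ± 0.12 (limma adjusted p = 5.36e-06), the largest of the 9 members at this time. At 8 h it read 5.19, 5.04 and 5.24 in the KA arrays, against 4.51, 4.69 and 4.95 in the control arrays. The groups were close to each other but did not overlap, and the log2 change was 0.44 ± 0.12 (limma adjusted p = 0.0167). The call at 8 h was lost without KA 8 h replicate 1 (limma adjusted p = 0.0580) or 3 (0.0573) and without control 8 h replicate 1 (0.0859) or 2 (0.0569). Its other probe set was below background on all 12 arrays and was not tested. With that probe set averaged in, the log2 change was 0.66 at 14 d (limma adjusted p = 7.43e-05) and 0.25 at 8 h (0.0200).

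Col4a1 encodes a chain of type IV collagen, the network-forming collagen of basement membranes. At 14 d its brighter probe set read 8.42, 8.07 and 8.61 in the KA arrays, against 7.93, 8.05 and 8.07 in the control arrays. The lowest KA array and the highest control read 8.07 to 2 decimals, so that the groups only just failed to overlap, and the log2 change of 0.35 ± 0.12 did not pass (limma adjusted p = 0.163). It did pass without KA 14 d replicate 2 (log2 change 0.50, limma adjusted p = 0.00888), under cyclic loess (0.0200) and with array weights (0.00139). At 8 h it read 8.97, 9.10 and 9.23 in the KA arrays, against 8.29, 8.19 and 8.25 in the control arrays. The groups were well apart, with a log2 change of 0.86 ± 0.12 (limma adjusted p = 9.17e-05). The second probe set read 7.40, 7.26 and 7.64 in the KA arrays at 8 h, against 6.45, 6.58 and 6.47 in the control arrays. It rose by 0.93 ± 0.10 (limma adjusted p = 2.40e-05 over all probe sets), a change of the same size.

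Serpinh1 encodes HSP47, a chaperone of the endoplasmic reticulum that binds newly made collagen and is also a heat shock gene. At 14 d its brighter probe set read 7.01, 6.96 and 7.07 in the KA arrays, against 6.55, 6.53 and 6.27 in the control arrays. The KA arrays stood above the controls and varied little among themselves, and the log2 change was 0.56 ± 0.11 (limma adjusted p = 0.0105, and 0.0647 without control 14 d replicate 3). At 8 h it read 6.59, 6.82 and 6.37 in the KA arrays, against 5.46, 5.38 and 5.31 in the control arrays. The controls at 8 h were the lowest 3 of the 12 arrays, and the log2 change was 1.21 ± 0.11 (limma adjusted p = 1.89e-06). The KA arrays at 8 h overlapped the controls of the 14 d set. Its other probe set was below background on all 12 arrays. With both averaged, the log2 change was 0.34 at 14 d (limma adjusted p = 0.0232) and 0.63 at 8 h (5.24e-05).

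Sparc encodes osteonectin, a secreted collagen-binding glycoprotein made by astrocytes, microglia and endothelium. At 14 d its brighter probe set read 10.86, 10.56 and 10.82 in the KA arrays, against 10.35, 10.35 and 10.27 in the control arrays. The groups did not overlap, and the log2 change was 0.42 ± 0.09 (limma adjusted p = 0.0148). Its call was lost without KA 14 d replicate 1 (limma adjusted p = 0.0856), without control 14 d replicate 2 (0.0545) or 3 (0.0724), without the third array of every group (0.133) and when the fit held the 14 d arrays alone (0.0711). At 14 d the second probe set read 10.54, 10.08 and 10.44 in the KA arrays, against 9.64, 9.53 and 9.72 in the control arrays. It rose by 0.72 ± 0.12 (limma adjusted p = 0.00317 over all probe sets), with the second KA array again the lowest of its group. At 8 h the brighter probe set read 10.45, 10.61 and 10.52 in the KA arrays, against 10.32, 10.36 and 10.36 in the control arrays. Although the groups did not overlap, the log2 change of 0.18 ± 0.09 did not pass (limma adjusted p = 0.195, and 0.0370 under cyclic loess).

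**Figure D2:**
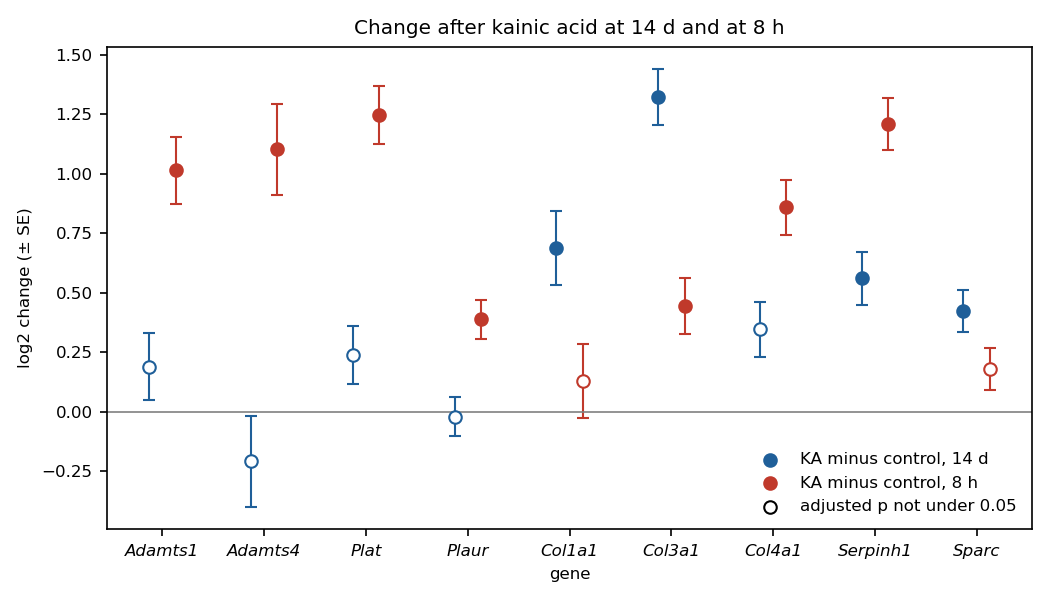
Log2 change (KA minus control, limma estimate ± SE, n = 3 per group) of each gene at 14 d and at 8 h; filled circles have an adjusted p under 0.05 over all genes tested and open circles do not. The protease genes, Plat, Plaur and Col4a1 lie higher at 8 h (0.39 to 1.25), as does Serpinh1 (1.21), and Col1a1, Col3a1 and Sparc lie higher at 14 d (0.42 to 1.32).

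The time course was tested as the change at 14 d minus the change at 8 h in the same fit. It asks whether the change between KA and control arrays differed between the times and shares its samples with both comparisons above. It holds the 8 h comparison, where KA cannot be told apart from a difference in sex, if there was one. By the time field, KA and time cannot be separated there either. It passed for 5 of 9 members, 4 with a smaller and 1 with a larger change at 14 d, where 3.06% and 2.45% of all genes did so (5.52% in all). Adamts4 changed by -0.21 at 14 d and by 1.10 at 8 h, a difference of -1.31 ± 0.27 (limma adjusted p = 0.00905), and Plat by 0.24 and 1.25, a difference of -1.01 ± 0.17 (limma adjusted p = 0.00240). Adamts1 differed by -0.82 ± 0.20 (limma adjusted p = 0.0236) and Serpinh1 by -0.65 ± 0.16 (limma adjusted p = 0.0231). Col3a1 was the member with the larger change at 14 d, by 0.88 ± 0.17 (limma adjusted p = 0.00496). Adamts1 lost this call without KA 8 h replicate 1, control 8 h replicate 3, KA 14 d replicate 1 or control 14 d replicate 1 or 2 (limma adjusted p from 0.0554 to 0.0673), and without the third array of every group (-0.64, limma adjusted p = 0.0783). Serpinh1 lost it without control 8 h replicate 2 or 3, KA 14 d replicate 1 or control 14 d replicate 1 or 2 (0.0520 to 0.0700), and with the mean of its probe sets (-0.29, limma adjusted p = 0.130). The mean of its probe sets gave 0.42 for Col3a1 (limma adjusted p = 0.0197). For Plaur (-0.41 ± 0.12, limma adjusted p = 0.0564), Col4a1 (-0.51 ± 0.16, limma adjusted p = 0.0888), Col1a1 (0.56 ± 0.22, limma adjusted p = 0.181) and Sparc (0.24 ± 0.12, limma adjusted p = 0.332) the difference did not pass, which does not show that their changes were alike. The second probe set of Col4a1 gave -0.68 ± 0.15 (limma adjusted p = 0.0151 over all probe sets), and the mean of both passed (-0.60, limma adjusted p = 0.0205). The count was 3 without control 8 h replicate 3 and without control 14 d replicate 1 or 2, and it was 8 with the replicate number as a block and 9 with array weights.

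The control groups were compared with each other, since a member that differs there changes its baseline between the times. Serpinh1 was the member that passed, 2.09-fold higher in the 14 d controls than in the 8 h controls (log2 change 1.07 ± 0.11, limma adjusted p = 0.000337), where 1.12% of all genes were higher and 0.679% lower in the 14 d controls (1.8% in either direction). Its 14 d controls averaged 6.45 ± 0.16 and its 8 h controls 5.38 ± 0.08 (SD, n = 3 each). With both probe sets averaged, the log2 change between its control groups was 0.59 (limma adjusted p = 0.00149). The KA arrays at 8 h averaged 6.59 ± 0.23 in the brighter probe set, a level close to that of the 14 d controls. Adamts4 had the next largest difference, 0.54 ± 0.19, which did not pass (limma adjusted p = 0.189) but did with the replicate number as a block (limma adjusted p = 0.00334), with array weights (0.0134) and without the third array of every group (0.0352). Its second probe set differed by 0.41 ± 0.12 (limma adjusted p = 0.111 over all probe sets). The other 7 members differed by -0.22 to 0.25, with adjusted p from 0.346 to 1.00. Of the matrix genes listed below, S100a10 (0.46 ± 0.09) and Vtn (0.45 ± 0.09) were higher in the 14 d controls. Adam17, a sheddase (0.48 ± 0.10), passed with its brightest probe set, but its 3 probe sets ran from -0.17 to 0.48, their mean did not pass (0.18, limma adjusted p = 0.412), and neither did the brightest under cyclic loess (0.0719). Timp3, a metalloprotease inhibitor (-0.48 ± 0.10), passed likewise and its mean did not (-0.38, limma adjusted p = 0.0606). Each of these 4 lost its call in some fits with 1 control array left out, and S100a10, Adam17 and Timp3 also without the third array of every group. For Col4a1 the control groups did not overlap, as for 25.1% of all genes, and the 14 d controls were the lower ones (-0.22 ± 0.12).

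Other genes of the matrix were taken from 8 lists, which hold 141 genes besides the members, 106 of them tested. At 14 d, 12 rose and 1 fell (12.3%, against 2.56% of all genes), with a median log2 change of 0.13, and at 8 h, 25 rose and 8 fell (31.1%, against 17.5% of all genes), with a median of 0.08. At 8 h the share called was 17.6% for matricellular and adhesive genes and 18.2% for fibrillar and other collagens, near that of all genes. It was 21.1% for metalloproteases and their inhibitors, and 25% to 66.7% for the other lists. The lists were chosen with earlier results of these data known, and no test of a list was made.

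Among fibrillar and other collagens, 1 of 11 genes rose at 14 d and 2 rose at 8 h. Col27a1, a fibrillar collagen of cartilage, was 1.41-fold higher at 14 d (log2 change 0.50 ± 0.10, limma adjusted p = 0.0161), and at 8 h it was 1.34-fold and Col16a1, a fibril-associated collagen, 1.35-fold higher. Of 12 basement membrane genes, none passed in limma at 14 d, where 3 had an unadjusted p under 0.05, and 2 rose and 1 fell at 8 h. Col4a2, the partner chain of Col4a1, was 1.74-fold higher at 8 h (0.80 ± 0.13, limma adjusted p = 0.000646), the laminin chain Lamc1 1.30-fold higher and the laminin chain Lamb1 1.25-fold lower. Col4a2 and Col4a1 lie next to each other in the genome and form the same collagen molecule. Of 14 genes of collagen folding and cross-linking, Plod1, a lysyl hydroxylase, rose at 14 d (1.29-fold), and 5 rose at 8 h. These were Loxl1, a cross-linking oxidase (1.40-fold), Plod2, a lysyl hydroxylase (1.35-fold), and the prolyl hydroxylase subunits P4ha2, P4ha3 and P4hb. Plod1 did not pass when the fit held the 14 d arrays alone (limma adjusted p = 0.141), with trend and robust settings of limma (0.0531) or with the mean of its probe sets (log2 change 0.21, limma adjusted p = 0.233).

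Some calls of the matrix genes named here and below did not hold in every fit. With 1 array left out, the call was lost in at least 1 fit for Col16a1, Col27a1, Lamb1, P4ha3, Mmp17, Serpini1, Hapln1, Tnr, Ptprz1, Tgfbi, Itga6 and Itgb1 at 8 h and for Col27a1, Plod1, Serpini1 and Ddr1 at 14 d. Without the third array of every group it was lost at 8 h for Col27a1, Lamc1, Lamb1, P4ha2, P4ha3, Mmp17, Hapln1, Tgfbi, Vtn, Itga6 and Itgb1 (limma adjusted p from 0.0527 to 0.233) and at 14 d for Ddr1 (0.0932), and with array weights at 8 h for Lamb1 (0.0638) and Itga6 (0.0715). Probe sets of 1 gene also differed in size, and folds are those of the brightest. Those of Cd44 ran from 0.21 to 2.14 at 8 h, those of Adamts9 from 0.08 to 1.13, those of Itgav from -0.0037 to 0.84, those of Loxl1 from 0.03 to 0.49 and those of Lamb1 from -0.56 to 0.04. With the mean of all probe sets, the log2 change at 8 h was 1.19 for Cd44, 0.57 for Adamts9, 0.26 for Loxl1, 0.26 for Plod2, 0.25 for Lamc1, -0.30 for Hapln1, 0.20 for Itgb1 and 0.69 for Col27a1, and all still passed. At 14 d it was 0.84 for Cd44 and 0.92 for Col27a1, which passed as well. The other probe set of Ccn1 rose by 2.47 at 8 h.

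Of 19 metalloprotease and inhibitor genes, none passed in limma at 14 d, where 3 had an unadjusted p under 0.05, and 3 rose and 1 fell at 8 h. Adamts9, a relative of Adamts1, was 2.19-fold higher at 8 h (1.13 ± 0.10, limma adjusted p = 1.04e-06) and lay at 5.90, 5.87 and 5.97 in the KA arrays, against 4.75, 4.86 and 4.73 in the control arrays. Its groups were far apart at 8 h, and the change at 14 d minus that at 8 h was -1.11 ± 0.14 (limma adjusted p = 0.000148), or -0.53 with the mean of its probe sets (limma adjusted p = 0.00646). Timp1, an inhibitor of matrix metalloproteases, was 1.67-fold higher at 8 h (0.74 ± 0.10, limma adjusted p = 7.58e-05), and Adam8, a protease of leukocytes and microglia, also rose, whereas Mmp17, a membrane-bound metalloprotease, was 1.25-fold lower. Of 9 genes in the plasminogen system list, 4 rose (Serpina3n, Serpinf1, Anxa2 and S100a10) and 1 fell at 14 d. At 8 h 5 rose, the same 4 and Thbd, and 1 fell. The list is broad, and not all of these genes act on plasminogen. Serpina3n, whose serpin product is a mark of reactive astroglia, was 5.30-fold higher at 14 d (2.41 ± 0.17) and 3.75-fold higher at 8 h. Anxa2, which with S100a10 forms a docking site for plasminogen, was 2.72-fold higher at 8 h (1.44 ± 0.10, limma adjusted p = 9.90e-08). Serpinf1, a serpin that does not inhibit proteases, was 1.63-fold higher at 14 d. Serpini1 (neuroserpin), the neuronal inhibitor of the Plat protein, was the gene that fell, 1.37-fold lower at 14 d (-0.45 ± 0.09, limma adjusted p = 0.0154) and 1.28-fold lower at 8 h (-0.36 ± 0.09, limma adjusted p = 0.0155). The 3 probe sets of Serpini1 ran from -0.45 to -0.04 at 14 d, and their mean did not pass then (-0.28, limma adjusted p = 0.0523) but did at 8 h (-0.23, limma adjusted p = 0.0339). Plat and its inhibitor gene moved in opposite directions at 8 h.

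Of 12 genes of hyaluronan binding, proteoglycans and tenascins, 1 rose at 14 d, and 3 rose and 4 fell at 8 h. Cd44, the hyaluronan receptor, was 2.55-fold higher at 14 d (1.35 ± 0.12) and 4.41-fold higher at 8 h (2.14 ± 0.12, limma adjusted p = 1.77e-08). Bcan, which encodes brevican, a substrate of the ADAMTS4 protein, was 1.42-fold lower at 8 h (-0.51 ± 0.08, limma adjusted p = 0.000257), and the neural proteoglycan gene Cspg5 was 1.42-fold lower. The link protein gene Hapln1 and the tenascin gene Tnr fell as well, while Ptprz1 (1.45-fold) and Ncan, which encodes neurocan, rose. Of 17 matricellular and adhesive genes, 3 rose at 14 d, and 2 rose and 1 fell at 8 h. Bgn, which encodes the collagen-binding proteoglycan biglycan, was 1.82-fold higher at 14 d (0.86 ± 0.10, limma adjusted p = 0.00012) and changed more then than at 8 h (difference 0.76 ± 0.14, limma adjusted p = 0.00485). Thbs4, an astrocytic thrombospondin, was 1.84-fold higher at 14 d (0.88 ± 0.15). Ccn1, a secreted immediate early gene product, was 2.95-fold higher at 8 h (1.56 ± 0.10, limma adjusted p = 5.85e-08), where Tgfbi rose 1.23-fold and Vtn, vitronectin, was 1.31-fold lower. Of 12 integrin and collagen receptor genes, Itgb5 (1.91-fold) and the collagen receptor Ddr1 (1.31-fold) rose at 14 d, and Itga6 (1.44-fold), Itgav (1.38-fold) and Itgb1 rose at 8 h. Itgb5 changed more at 14 d than at 8 h (difference 1.06 ± 0.13, limma adjusted p = 0.000121), Ccn1 less (-1.08 ± 0.14, and -1.99 for its other probe set), Cd44 less (-0.79 ± 0.18, and -0.35 with the mean of its probe sets) and S100a10 less (-0.82 ± 0.13).

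**Figure D3:**
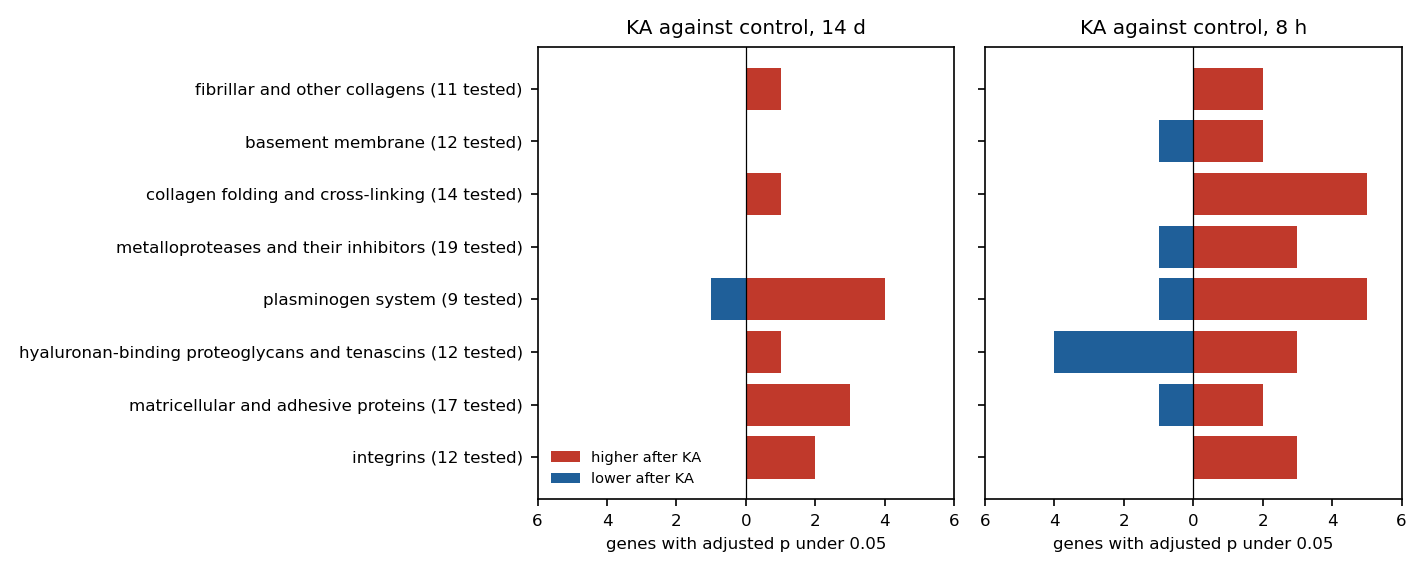
Number of genes higher (right of 0) or lower (left of 0) after KA at a limma adjusted p under 0.05, for each of 8 matrix lists, at 14 d and at 8 h; the number tested stands beside each name. Falls numbered 1 in all at 14 d and 8 at 8 h, of which 4 were in the list of hyaluronan-binding proteoglycans and tenascins.

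Markers of the cells that make matrix were read beside the members, as the mean log2 level of each list. For the counts below, 2.56% of all genes tested were called at 14 d and 17.5% at 8 h, in either direction. Fibroblast and meningeal markers, the cells best known for Col1a1 and Col3a1, averaged 5.17 (5.02 to 5.31) in the KA arrays at 14 d, against 5.15 (5.11 to 5.17) in the control arrays, and 5.06 (4.96 to 5.17) in the KA arrays at 8 h, against 5.11 (5.08 to 5.12) in the control arrays. None of the 7 tested passed in limma at either time (unadjusted p under 0.05 for 2 at 14 d and 1 at 8 h), Dcn, which encodes decorin, changed by 0.08 ± 0.13 at 14 d, and Lum, Col1a2 and Pdgfra were below background on all arrays. Microglia markers averaged 7.62 (7.53 to 7.67) in the KA arrays at 14 d, against 6.60 (6.56 to 6.65) in the control arrays, with 6 of 7 tested higher, and astrocyte markers averaged 8.54 (8.38 to 8.65) in the KA arrays at 14 d, against 8.17 (8.15 to 8.21) in the control arrays, with 3 of 9 higher. These 2 lists moved at 14 d with Col3a1, Col1a1, Sparc and Serpinh1, and their part in those changes was not tested. Endothelial markers averaged 6.13 (6.09 to 6.18) in the KA arrays at 8 h, against 5.83 (5.81 to 5.85) in the control arrays, with 4 of 10 higher and 1 lower. Cdh5, the cadherin of endothelial junctions, was 1.97-fold and Pecam1 1.66-fold higher, and Slco1a4, a transporter of the blood-brain barrier, 1.72-fold lower. The endothelial list moved at 8 h with Col4a1, Plat and Adamts1, and its part in their changes was not tested. At 14 d it averaged 6.05 (5.97 to 6.13) in the KA arrays, against 5.92 (5.89 to 5.94) in the control arrays, and none of its 10 genes passed in limma (unadjusted p under 0.05 for 2). Pericyte and smooth muscle markers averaged 5.81 (5.75 to 5.88) in the KA arrays at 8 h, against 5.94 (5.89 to 5.98) in the control arrays, with 1 of 7 lower (Myh11). Microglia markers at 8 h averaged 6.10 (6.04 to 6.13) in the KA arrays, against 6.30 (6.23 to 6.40) in the control arrays, with 1 of 7 higher and 3 lower. Astrocyte markers at 8 h averaged 8.27 (8.24 to 8.28) in the KA arrays, against 8.19 (8.15 to 8.22) in the control arrays. Of 9 tested, 1 was higher (Sox9, 2.19-fold) and 1 lower (Fgfr3, 1.31-fold). Neuron markers averaged 9.84 (9.63 to 9.99) in the KA arrays at 14 d, against 9.90 (9.87 to 9.94) in the control arrays, and 9.76 (9.69 to 9.81) in the KA arrays at 8 h, against 9.83 (9.80 to 9.88) in the control arrays. Of 9 neuron markers tested, 1 was lower at 14 d and 2 at 8 h. None of 9 choroid plexus markers passed in limma at either time (unadjusted p under 0.05 for 0), and their mean level ranged from 5.15 to 6.66 within the KA arrays at 8 h. Of 5 blood leukocyte markers with a probe set, 4 were below background on all arrays, Ptprc, Cd3e and Ccr2 among them, and of the 2 erythrocyte markers tested none passed in limma at either time (unadjusted p under 0.05 for 2 at 14 d and 0 at 8 h).

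**Figure D4:**
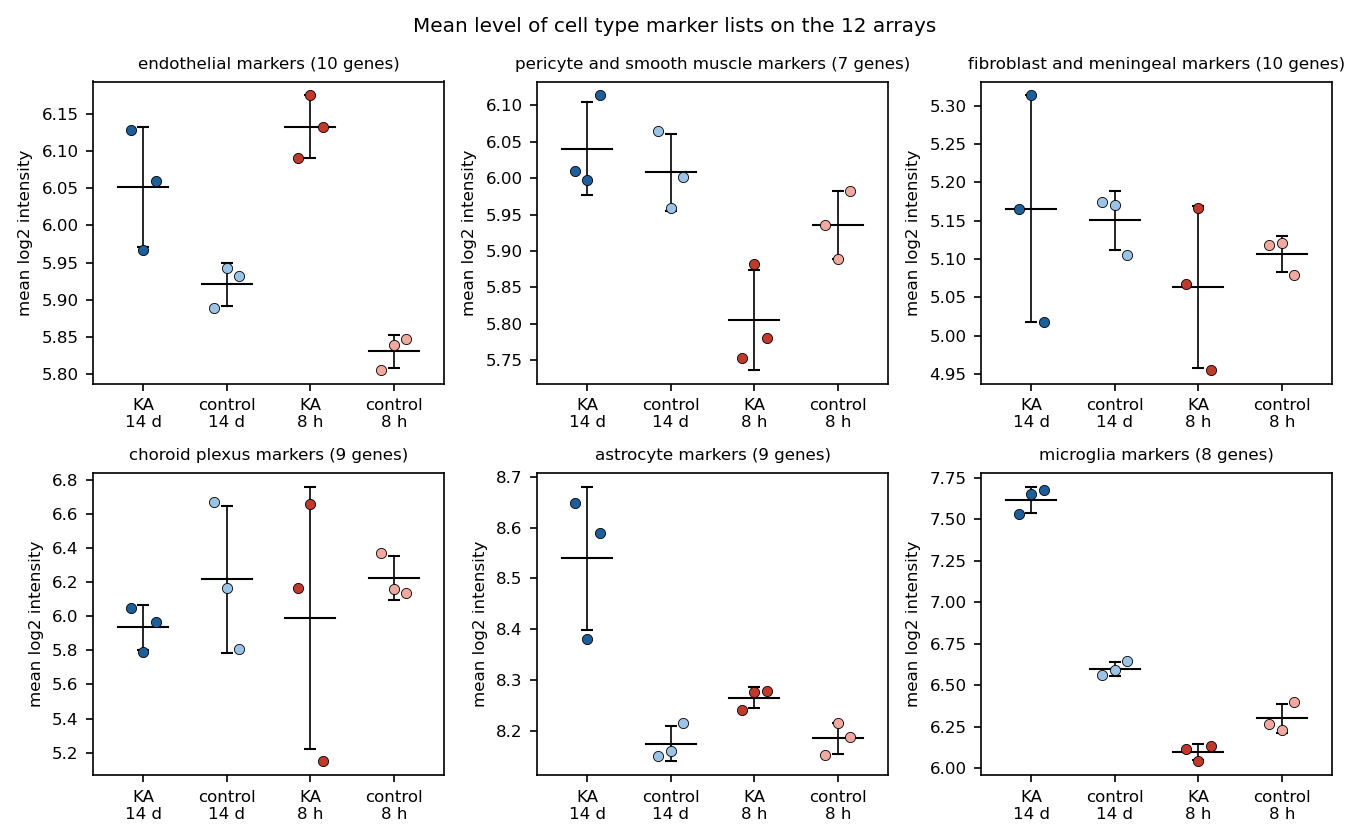
Mean log2 intensity of 6 marker lists on the 12 arrays, by group as in the plot of single genes; points are arrays, lines are means and error bars SD (n = 3), on axes that do not start at 0. Microglia and astrocyte lists stand highest in the KA arrays at 14 d, the endothelial list in those at 8 h, and the fibroblast and meningeal list overlaps between KA and control at both times.

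The genes whose values ran most like a member's over the 12 arrays were read off by Pearson correlation, as a description in which the arrays share the 4 groups. For Col3a1 they were Stab1 (r = 0.963), Ctsz (0.963) and Tyrobp (0.953). For Sparc they were Dhrs1 (0.959), Penk (0.955) and Npy (0.951), and for Col1a1 E2f2 (0.947), Sag (0.941) and Galc (0.936). For Col4a1 they were Tanc1 (0.987), Grb2 (0.986) and Cstb (0.986), and for Plat Casc3 (0.985), Grb2 (0.983) and Jun (0.978), so that 1 gene stood in both groups of 3. Adamts1 ran closest to Rassf1 (0.971), Adamts4 to Cpeb3 (0.945), Plaur to Ss18l2 (0.965) and Serpinh1 to Pofut2 (0.959).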

How the data were processed

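RNA of the mouse hippocampus on the injected side was measured on 12 arrays, 3 for each treatment and time, after amplification of 5 ng over 22 cycles, per the labels' protocols. The deposited values are log2 intensities, as their range shows, and per the submitters' processing notes RMA and affy were used, with no version given; the genome build is not given in the sources used here. Total counts do not exist for arrays, and the number of arrays limits the precision. Probe sets were named from the platform annotation, with symbols updated through RefSeq gene identifiers. Of several probe sets of a gene, the brightest by its 12-array mean stood for it. Genes were kept if their value lay above the array's 30th percentile on at least 3 arrays, which left 13853. One model with the 4 groups was fitted in limma 3.58.1 (R 4.3.3) with Benjamini-Hochberg adjustment over all genes, and a fit over 32790 probe sets gave the values of second probe sets. The fitting code was tested on simulated data. A probe set was called below background where it lay under the mean of the array's nonspecific control probe sets with 18 or more G or C bases. The members and all gene lists were chosen with earlier results of these data known.

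Every probe set of the members was read. Of each matrix list, up to 2 called genes that rose and 2 that fell by size at each time, and 1 in each direction for the other comparisons, were taken, and other genes named were chosen after their values were seen. Arrays of KA and control with the same replicate number were compared as deviations from their group means. At 8 h the correlations were 0.155, 0.138 and 0.413, all over 0.1, and at 14 d they were 0.164, 0.068 and 0.463. At 8 h replicates 1 and 2 correlated as much across unlike numbers (0.138 and 0.163), so the data do not pair those arrays. The third arrays stood apart at 8 h, with -0.26 to -0.223 against arrays of another number. At 14 d they correlated at -0.443 to -0.081 with arrays of another number. Between the control groups they correlated at 0.401 with each other and at -0.302 to -0.171 with the rest. In every group the third array had the lowest background (4.10 and 4.16 at 8 h, 4.27 and 4.18 at 14 d, KA first). The main model holds no term for the replicate number, and the cause was not tested. The alternatives were no filter or a stricter one (50th percentile), the mean of all probe sets, leaving out probe sets that can bind several transcripts, median centring, cyclic loess, only the groups compared, array weights, eBayes with trend and robust, the replicate block, and leaving out arrays.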

Additional observations from a re-analysis of the deposited data

Results flagged for a closer look

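For 5 of the 9 genes the change after KA differed between the times by the test of the difference itself, taken as the change at 14 d minus the change at 8 h on the log2 scale. The difference was -0.82 for Adamts1, -1.31 for Adamts4, -1.01 for Plat and -0.65 for Serpinh1, each with a smaller change at 14 d. For Col3a1 it was 0.88, a larger change at 14 d. The calls of Adamts1 and Serpinh1 were each lost in 5 fits with 1 array left out. That of Serpinh1 was also lost with the mean of its probe sets (-0.29, limma adjusted p = 0.130). At 14 d Adamts1 lay above background on 1 KA array and 1 control array. Serpinh1 also differed between the control groups, so its changes are counted from unequal baselines. The control groups of Adamts4 differed by 0.54, which did not pass (limma adjusted p = 0.189). It did pass with the replicate block, with array weights and without the third array of every group. The 8 h part of each difference has the limits of sex and of the time field given in the opening. No cause of these differences was tested.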

How the results depend on the processing

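Across the alternatives, 754 of 819 recomputed values of the 9 genes kept their direction and their side of the threshold, and 12 turned direction, none of which had passed the test. Where an array left out belonged to neither group compared, the estimate could not move, only its p-value. Part of this agreement was therefore fixed in advance. The members called at 8 h stayed between 6 and 8. Those called at 14 d numbered 4, fell to 2 with only the groups compared, reached 6 with array weights and ran from 1 to 4 with 1 array left out. Those whose change differed between the times numbered 5, against 9 with array weights, and 3 to 7 with 1 array left out. Those that differed between the control groups numbered 1, against 2 with array weights and 2 without the third array of every group. Of the other matrix genes, 33 changed at 8 h, against 21 without the third arrays. At 14 d 13 changed, against 49 with array weights and 9 to 17 with 1 array left out. The change differed between the times for 13 of 106 tested (12.3%, against 5.52% of all genes). That count was 28 with array weights and 8 to 20 with 1 array left out. The control groups differed for 5 of 106 (4.72%, against 1.8% of all genes). Here the count was 3 with the mean of all probe sets, 9 with only the groups compared and 15 with array weights. It ran from 0 to 9 with 1 array left out. The array weights, from 0.334 to 5.037, came from a fit that stopped before it converged. KA 14 d replicate 1 had the weight of 5.037, against 0.334 for replicate 2 and 0.385 for replicate 3.

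With the replicate block, 8 members differed between the times and 2 between the control groups (Adamts4 was added). Among the other matrix genes the block gave 20 at 14 d and 8 between the control groups. It changed no other member's call at 8 h or 14 d.

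The direction turned for Plaur at 14 d with array weights (0.061) and with 1 array left out (-0.074 to 0.010), including 0.0025 without KA replicate 2 and 0.0012 without control replicate 1. Between the control groups it turned with 1 array left out for Adamts1 (-0.12 to 0.080, including 0.043 and 0.047), Plaur (-0.026 to 0.020, including 0.0074) and Sparc (-0.035 to 0.0057), and without the third arrays for Plaur (0.031) and Sparc (0.012). Dcn, a fibroblast marker that had not passed, turned at 14 d without control replicate 2 (-0.035, of a range up to 0.19 with 1 array left out). The cause was not tested. Over all genes, 354 were called at 14 d, against 2099 with array weights, 599 with the block and 196 (without control 14 d replicate 2) to 457 with 1 array left out. Between the times 764 were called, against 2168 and 1214, and 508 (without control 14 d replicate 2) to 902. Between the controls 249 were called, against 1336 and 570, 543 with only the groups compared, and 86 (without control 8 h replicate 1) to 421 (without KA 14 d replicate 2). At 8 h 2420 were called, against 3293 with array weights, 3134 with the block and 1659 to 2748 with 1 array left out. Higher against lower calls between the controls were 155 and 94, and 188 and 185 under cyclic loess, and at 8 h they were 1097 and 1323, against 1399 and 1215 under cyclic loess, which turns the balance. Low signal limits Adamts1, which lay above background on 7 of 12 arrays.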
